A study of Mus musculus with 12 samples.

Results

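Collagens and laminins are the chains from which basement membranes and connective tissue fibrils are built, and their mRNAs are described here in transected and sham-operated mouse spinal cord, in polysome-bound and in total RNA. The members are the genes whose probe sets carry a single symbol of the form Col, number, a, number, or Lama, Lamb or Lamc with a number, and each gene is represented by its brightest probe set. They number 46 of the 12394 genes with a single symbol on the array, 36 of them collagen and 10 laminin genes, and they hold 74 probe sets. Wild-type female C57BL/6 mice aged 10 weeks had either a transection of 80% of the cord, called injured, or a laminectomy without a cut, called sham (naive in the sample titles). Both operations shared the laminectomy, and cord was taken 9 hours later as a piece of 2.5 cm around the site. Part of each homogenate gave total RNA, and the rest was run on a sucrose gradient for polysome-bound RNA, that is, mRNA carrying several ribosomes. The 12 arrays form 4 groups of 3 biological replicates: polysome-bound RNA of injured cord, polysome-bound RNA of sham cord, total RNA of injured cord and total RNA of sham cord. Nothing in the labels says whether a replicate was 1 animal or a pool, so p-values measure only the spread between these samples. The piece can include white and grey matter, vessels, meninges and nerve roots.

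A collagen molecule is a triple helix of alpha chains, and a laminin molecule is a cross of 1 alpha, 1 beta and 1 gamma chain. Type IV collagen and laminin each form a network, and the networks are joined into the thin sheet that lies under vessel endothelium, around pericytes, beneath the end feet of astrocytes and around Schwann cells. Fibrillar collagens (types I, II, III, V and XI) form banded fibrils, which in the normal cord are found in the meninges and around larger vessels and which later help to make up the fibrotic scar. Fibril-associated collagens, known as FACITs, decorate fibrils, and the type VI chains form beaded filaments.

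Col4a1 and Col4a2, the chains of the type IV molecule present in nearly every basement membrane, lie head to head and share their promoter. They had the largest rises of all members in total RNA, so their promoter windows of 300 bases (250 before and 50 after the gene start in RefSeq, build GRCm38.p6) are printed with the 78 bases that both windows hold in capitals. The Col4a1 window lies on the minus strand at chr8:11312777-11313076 and the Col4a2 window on the plus strand at chr8:11312555-11312854. The start sites used for the windows, 11312826 for Col4a1 and 11312805 for Col4a2, are 21 bases apart, and the shared stretch runs from 11312777 to 11312854. Col16a1 (chr4:130047590-130047889, plus strand), a member that rose in both polysome-bound and total RNA, and Col3a1 (chr1:45311288-45311587, plus strand), whose injury changes in the 2 fractions differed most by its brightest probe set, are shown beside them with motif matches in capitals.
Col4a1: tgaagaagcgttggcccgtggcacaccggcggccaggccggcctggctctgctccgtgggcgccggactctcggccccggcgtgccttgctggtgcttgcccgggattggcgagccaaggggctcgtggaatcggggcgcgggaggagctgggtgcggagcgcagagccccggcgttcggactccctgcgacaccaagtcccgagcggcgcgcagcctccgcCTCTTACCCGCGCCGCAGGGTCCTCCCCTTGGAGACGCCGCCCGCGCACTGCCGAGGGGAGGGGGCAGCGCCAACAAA
Col4a2: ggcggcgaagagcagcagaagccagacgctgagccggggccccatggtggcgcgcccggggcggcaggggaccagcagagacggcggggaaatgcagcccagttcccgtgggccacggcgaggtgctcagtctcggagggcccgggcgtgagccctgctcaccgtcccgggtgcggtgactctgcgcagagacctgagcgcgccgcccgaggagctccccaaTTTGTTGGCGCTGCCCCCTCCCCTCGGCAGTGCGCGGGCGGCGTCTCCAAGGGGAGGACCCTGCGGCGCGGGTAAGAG
Col16a1: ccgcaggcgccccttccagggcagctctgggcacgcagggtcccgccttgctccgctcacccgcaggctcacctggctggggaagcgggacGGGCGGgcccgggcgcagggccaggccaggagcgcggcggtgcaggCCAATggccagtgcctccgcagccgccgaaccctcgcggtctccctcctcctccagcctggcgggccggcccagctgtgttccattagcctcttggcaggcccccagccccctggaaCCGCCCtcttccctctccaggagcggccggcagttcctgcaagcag
Col3a1: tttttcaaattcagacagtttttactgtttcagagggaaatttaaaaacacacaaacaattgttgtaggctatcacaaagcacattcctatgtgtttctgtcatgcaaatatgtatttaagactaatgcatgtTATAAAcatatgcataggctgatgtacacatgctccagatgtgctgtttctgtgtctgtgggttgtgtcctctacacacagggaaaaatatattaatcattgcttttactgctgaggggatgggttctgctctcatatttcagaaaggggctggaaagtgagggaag
The motifs searched, on both strands, were the CCAAT box (CCAAT), the GC box (GGGCGG), the TATA box (TATAAA), an AP-1 site (TGANTCA) and a STAT site (TTCNNNGAA). In the Col16a1 window the capitals mark 1 CCAAT box and 2 GC boxes, and in the Col3a1 window they mark a TATAAA. RefSeq windows were at hand for 32 of the 46 members, in 36 windows, out of 32851 windows of all genes. The GC box was in 55.6% of the members' windows and in 35.7% of all windows, and the CCAAT box was in 36.1% of the members' windows and in 37.4% of all. TATAAA was in 13.9% of the members' windows and 13.6% of all windows. The AP-1 site was in 2.78% of the members' windows and 7.81% of all windows. A match describes letters and is no evidence of binding.

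The deposited values are log2 levels of 5.26 to 14.65. The level of 1 probe set cannot be set against that of another, so only values of the same gene are compared. Array medians ran from 7.12 to 7.24 in polysome-bound RNA of injured cord, 7.24 to 7.26 in that of sham cord, 7.76 to 7.79 in total RNA of injured cord and 7.75 to 7.77 in that of sham cord. A member was taken as measured on an array where it stood above the highest of 27 control probe sets for bacterial genes absent from the sample. Signal from the 3′ part of the Gapdh control exceeded that from its 5′ part by 2.83 ± 0.27 on injured and 0.87 ± 0.03 on sham polysome arrays, and by 1.40 ± 0.22 on injured and 0.23 ± 0.05 on sham total arrays (log2, mean ± SD, n = 3 each; exact two-sided permutation p = 0.1 for each fraction, the smallest that 3 arrays against 3 allow). This difference, a sign of shortened RNA or labelled cRNA, therefore moved with injury in both fractions. The Gapdh difference was also larger on polysome than on total arrays, in injured and in sham cord. Its part in every injury, fraction and interaction result below was not tested.

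The array measured most of the members. Of the 46, 39 passed a filter (on 3 or more arrays, a value above the 25th percentile of all probe sets there), and 25 stood above background on all 12 arrays. The 7 that did not pass were Col4a3, Col4a4, Lama3, Lamb3, Col10a1, Col17a1 and Col22a1, and each was at background on every array. Col4a3 and Col4a4 are the kidney-type chains of type IV collagen, and Lama3, Lamb3 and Col17a1 belong to the anchoring complex of skin. None of the 39 passed through 1 group alone. By class, the 39 comprised 14 basement membrane chains (of 18), 9 fibrillar chains (of 9), 8 FACITs and related chains (of 9), 3 type VI chains (of 3), 2 short-chain or anchoring chains (of 3), 2 transmembrane collagens (of 3) and Col26a1. Tests used limma across all 10371 genes that passed, with Benjamini-Hochberg adjustment and a threshold of 0.05.

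Injury raised some collagen and laminin mRNAs in total RNA and lowered about as many. Of the 39 genes, 11 were higher and 13 lower in injured than in sham cord, where among all genes tested 60.2% were called, 42.1% higher and 18.1% lower. For 26 of the 39 the injured arrays all lay on one side of the sham arrays, beside 72.7% of all genes. The median change of the 39 was -0.03 on the log2 scale, beside 0.12 for all genes. The basement membrane chains had 6 rises and 4 falls among 14 and a median of 0.09, and the fibrillar chains 3 rises and 2 falls among 9 and a median of 0.12. Total RNA from bulk cord cannot tell apart fewer cells of a type and less RNA per cell. The change of a gene also ran with its level over the array: with all genes divided into 5 equal groups by level, the median change was -0.14 in the dimmest group and 0.28 in the brightest. The 2 dimmest groups, with medians of -0.14 and 0.02, held 12 and 20 of the 39 members.

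**Figure D1:**
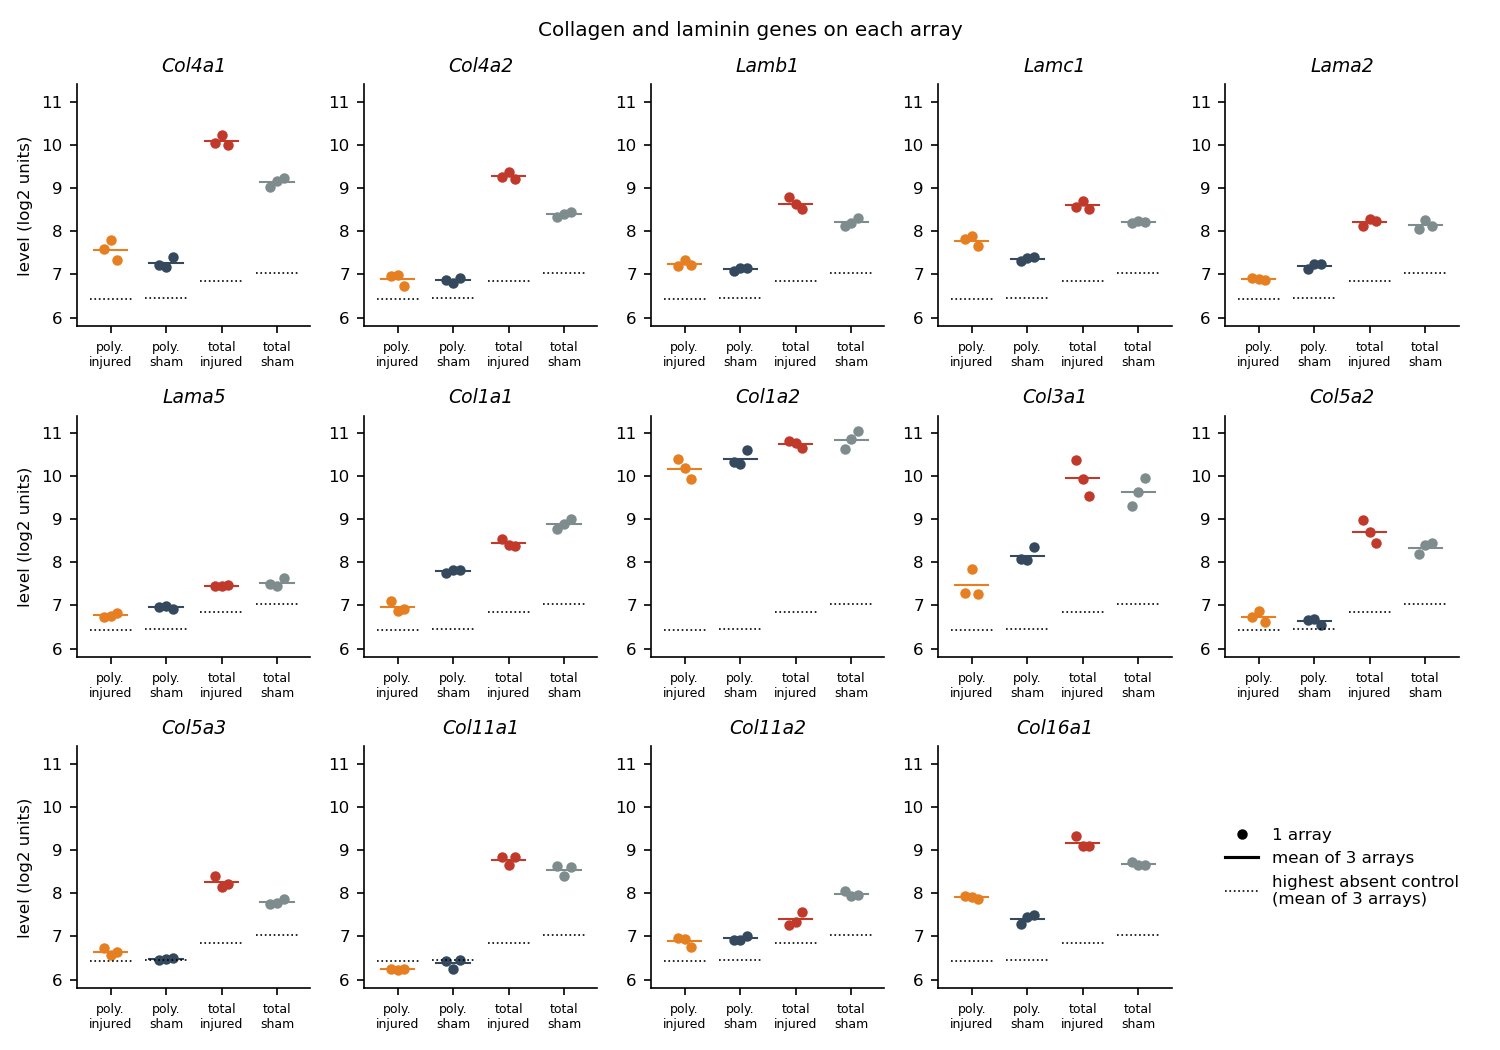
Level of 14 collagen and laminin genes on each array (log2 units) in the 4 groups, with points for arrays, bars for the mean of 3 arrays and dotted lines for the highest absent control. Col4a1 and Col4a2 stand apart between injured and sham total RNA, whereas Col1a1 stands lower in injured cord in both fractions.

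Type IV collagen led the rises. Col4a1 read 10.05, 10.24 and 10.01 on the 3 injured arrays of total RNA, against 9.03, 9.17 and 9.24 on the sham arrays. All injured values lay above all sham values, and the rise was 0.95 ± 0.10 (log2 change ± SE of the fit, 1.94-fold, adjusted p = 8.7e-06, limma). Col4a2 read 9.26, 9.37 and 9.22 in injured cord, against 8.33, 8.39 and 8.46 in sham cord. The groups again did not overlap, and the rise of 0.89 ± 0.07 (1.85-fold, adjusted p = 6.6e-07, limma) was close in size to that of its partner chain. A second Col4a1 probe set rose by 0.55. Neither of the other type IV chains tested was called higher: Col4a5, which joins other alpha chains in the networks of kidney and smooth muscle, differed by 0.05 (adjusted p = 0.62), and Col4a6 stood above background on none of the injured arrays, against 2 of the 3 sham arrays. Near background, Col4a6 was called lower by 0.34 (adjusted p = 0.00039). Col18a1, whose end fragment is endostatin, differed by 0.10 (adjusted p = 0.17). Col15a1, a basement membrane collagen that bridges to the underlying fibrils, fell by 0.28 (adjusted p = 0.004).

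Of the 10 laminin genes, Lamb1, Lamc1, Lama4 and Lamb2 were called higher in total RNA. Laminin-411 and laminin-511, the vascular forms, pair an alpha 4 or alpha 5 chain with beta 1 and gamma 1. Lamb1, the beta 1 chain, read 8.79, 8.63 and 8.51 in injured cord, against 8.11, 8.20 and 8.31 in sham cord. The groups did not overlap, and the rise was 0.44 ± 0.07 (1.35-fold, adjusted p = 0.00021). Its other probe sets differed by 0.30 and 0.01, so the size depends on the stretch of the mRNA that is read. Lamc1, the gamma 1 chain shared by most laminins, read 8.57, 8.70 and 8.52 in injured cord, against 8.19, 8.23 and 8.22 in sham cord. It rose by 0.38 ± 0.07 (adjusted p = 0.00028) with no overlap, but its second probe set differed by -0.14, and the mean of both gave 0.12 (adjusted p = 0.092). Lama4, the alpha 4 chain of endothelium, rose by 0.26 (adjusted p = 0.0013), and Lamb2, the beta 2 chain of vessels and synapses, by 0.19 (adjusted p = 0.027). The second Lama4 probe set, below the filter, fell by 0.15 (adjusted p = 0.032). The Lamb2 call was lost on leaving out total-RNA arrays injured 1 or 3 or sham 1 or 2, with values of 0.17 to 0.20, and with the replicate number as a block (adjusted p = 0.060).

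The other alpha chains were not called higher. Lama2, the alpha 2 chain of muscle, Schwann cell and vessel laminins, read 8.13, 8.29 and 8.24 in injured total RNA, against 8.05, 8.26 and 8.12 in sham, and the overlapping groups differed by 0.07 (adjusted p = 0.32). Lama5 read 7.45, 7.45 and 7.47 in injured cord, against 7.49, 7.45 and 7.63 in sham cord, a difference of -0.07 (adjusted p = 0.29), while its second probe set fell by 0.17 (adjusted p = 0.012). Lama1, the embryonic and meningeal alpha 1 chain, stood above background on none of the injured and 1 of the 3 sham arrays. Near background, Lama1 was called lower by 0.30. Lamc3 was called lower by 0.14, near background, and did not pass under quantile normalization over all arrays (-0.01).

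The fibrillar chains moved in opposite directions. Col1a1, one of the chains of type I collagen, read 8.55, 8.41 and 8.37 in injured total RNA, against 8.77, 8.88 and 9.00 in sham. Every injured array lay below every sham array, and the fall was 0.44 ± 0.08 (1.36-fold, adjusted p = 0.00028). A second Col1a1 probe set fell by 0.15 (adjusted p = 0.024, limma). The partner chain Col1a2 read 10.81, 10.77 and 10.64 in injured cord, against 10.62, 10.86 and 11.03 in sham cord. These groups overlapped, and the difference of -0.10 did not pass (adjusted p = 0.50), although quantile normalization over all arrays gave a fall of 0.42 (adjusted p = 0.014). The second Col1a2 probe set differed by 0.19, with the opposite sign, and was not called (adjusted p = 0.072, limma). Col3a1, the type III chain of vessel walls and meninges, read 10.38, 9.92 and 9.54 in injured cord, against 9.30, 9.63 and 9.96 in sham cord. It varied more between replicates than the other named chains, its groups overlapped, and the difference of 0.32 ± 0.20 did not pass (adjusted p = 0.19); without injured replicate 3 it was 0.52 and passed, and its second probe set differed by 0.02.

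The minor fibrillar chains, which start fibrils and set their width, included 3 rises. Col5a3 read 8.40, 8.16 and 8.22 in injured cord, against 7.75, 7.78 and 7.88 in sham cord. It rose by 0.45 ± 0.07 (adjusted p = 7.8e-05) with no overlap. Its second probe set, below the filter, fell by 0.18 (adjusted p = 0.016). Col5a2 read 8.98, 8.70 and 8.46 in injured cord, against 8.19, 8.39 and 8.44 in sham cord. Its lowest injured array was only just above its highest sham array, and the rise of 0.37 ± 0.11 (adjusted p = 0.0095) was lost without injured replicate 1 (0.24) or sham replicate 1 (0.29). Its second probe set rose by 0.17 (adjusted p = 0.013). Col11a1 read 8.85, 8.64 and 8.84 in injured cord, against 8.64, 8.40 and 8.61 in sham cord. The rise of 0.23 ± 0.08 (adjusted p = 0.020) was lost without injured replicate 1 or 3 or sham replicate 2, at 0.16 to 0.20, and under quantile normalization, at 0.09, and its second probe set rose by 0.26 (adjusted p = 0.011). Col11a2, the alpha 2 chain of the same type XI collagen, went the other way. It read 7.28, 7.33 and 7.58 in injured cord, against 8.05, 7.93 and 7.97 in sham cord, and fell by 0.59 ± 0.08 (1.50-fold, adjusted p = 3.7e-05) with no overlap. Col2a1 and Col5a1 differed by 0.12 and -0.03 and did not pass. By its other probe sets Col5a1 was at -0.16, called lower (adjusted p = 0.024, limma), and at -0.11, not called (adjusted p = 0.11, limma).

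By their brightest probe sets, all 8 FACITs and related chains tested were called in total RNA, 2 higher and 6 lower. Col16a1, a chain of fibril surfaces and of some basement membranes, read 9.33, 9.09 and 9.08 in injured cord, against 8.73, 8.66 and 8.66 in sham cord. The groups did not overlap, and it rose by 0.48 ± 0.07 (adjusted p = 9.3e-05). Col19a1 rose by 0.18 (adjusted p = 0.033), a call lost without injured replicate 1 or 3 or sham replicate 2, at 0.11 to 0.19. Its second probe set, below the filter, fell by 0.24 (adjusted p = 0.0012). The falls of Col9a1, Col9a2, Col9a3, Col12a1 and Col20a1 ran from 0.14 to 0.25. Col14a1, also called lower, was not above background on any injured array and was at least 1.23-fold lower. By other probe sets, Col14a1 (-0.10), Col9a1 (-0.12), Col20a1 (-0.12 and -0.09) and Col9a3 (0.02 and 0.02) were not called. Col16a1, Col12a1 and Col9a2 had a single probe set. Under quantile normalization over all arrays Col9a1, Col9a2 and Col20a1 were at -0.13, -0.02 and -0.06 and did not pass. The call of Col9a2 was also lost without injured replicate 1 or 2 or sham replicate 3, at -0.14 to -0.10, and that of Col9a3 without injured replicate 1 or 2 or sham replicate 1 or 2, at -0.15 to -0.11. The 3 type VI chains, Col6a1, Col6a2 and Col6a3, lay between -0.03 and 0.07 and none passed, and Col25a1, a transmembrane collagen of neurons, fell by 0.33 (adjusted p = 0.0013).

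**Figure D2:**
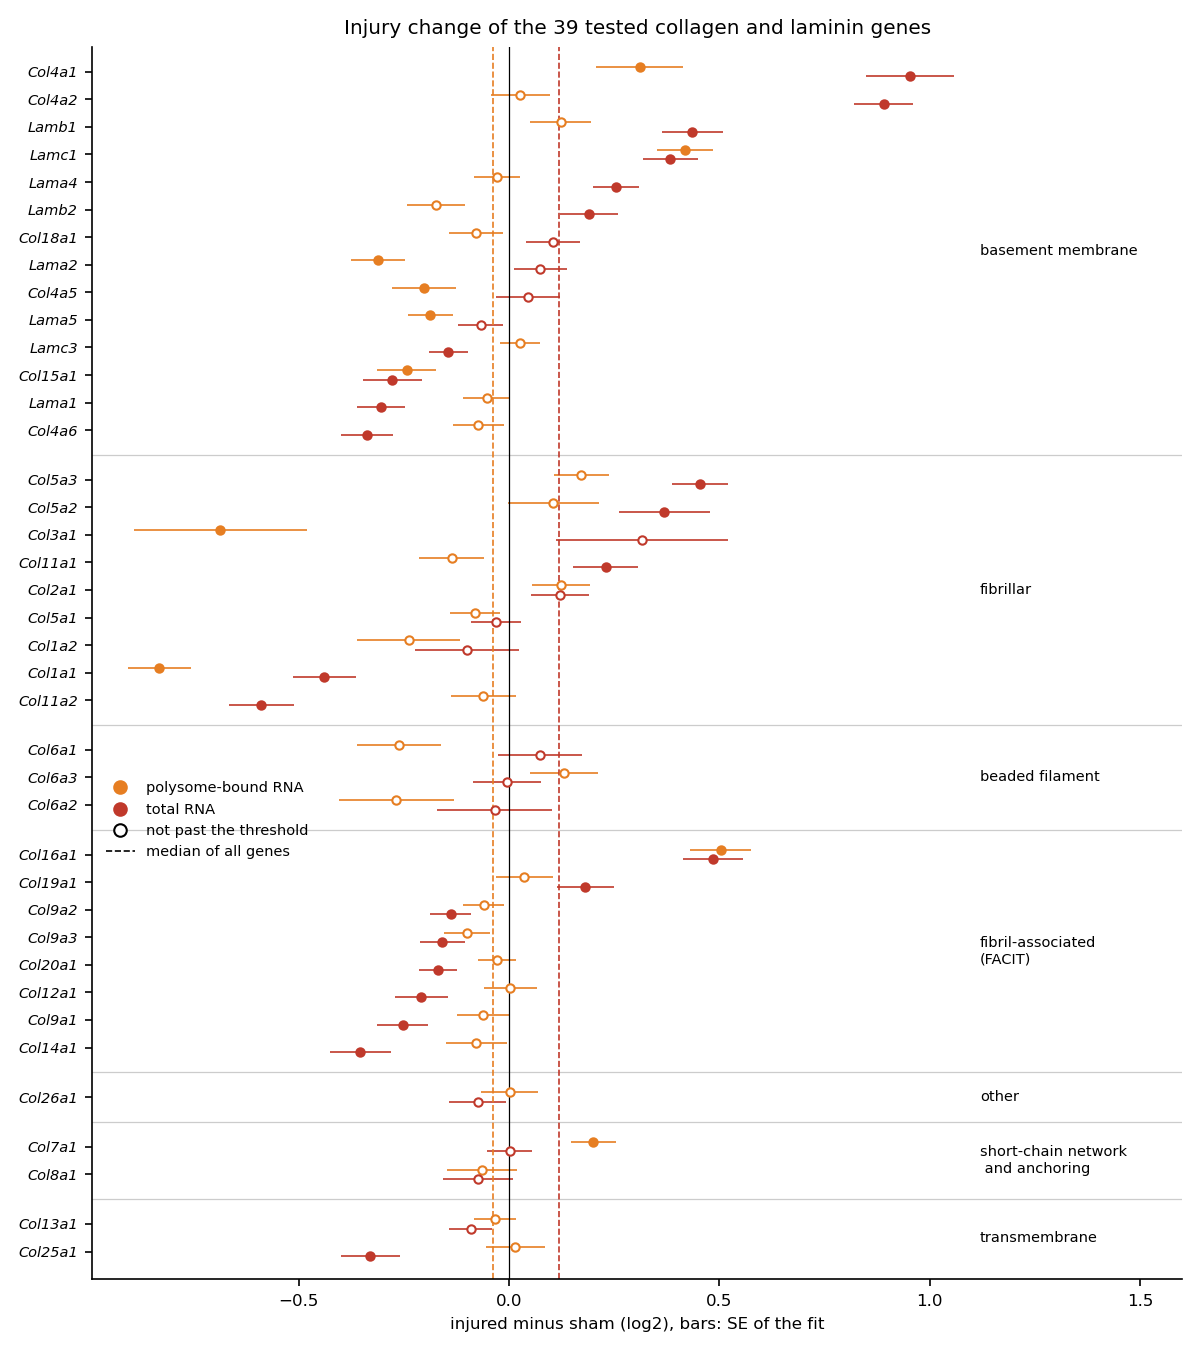
Injured minus sham change (log2, bars for the SE of the fit) of the 39 tested genes, by class, in polysome-bound (orange) and total RNA (red), with filled points for genes past the threshold and dashed lines for the medians of all genes. Col4a1 and Col4a2 stand at 0.31 and 0.03 in polysome-bound RNA and at 0.95 and 0.89 in total RNA, whereas Col1a1 stands at -0.83 in polysome-bound and -0.44 in total RNA.

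In polysome-bound RNA 10 of these genes were called after injury. Of the 39, 4 were higher and 6 lower in injured cord, where among all genes tested 39.1% were called, 13.7% higher and 25.3% lower. The groups did not overlap for 18 of the 39, beside 46.3% of all genes. The median change was -0.06, beside -0.04 for all genes. The 4 rises were those of Col4a1, Lamc1, Col16a1 and Col7a1, the anchoring fibril chain (0.20, adjusted p = 0.009). The 6 falls were those of Col1a1, Col3a1, Lama2, Lama5, Col15a1 and Col4a5, the last with no polysome array above background in either group and with a call lost in most settings. The Col15a1 fall of 0.24 was lost without injured replicate 2 or sham replicate 1 or 2, at -0.22 to -0.18, and after centring, at -0.16. After each array was centred on its own median, 8 of the 39 were higher and 3 lower, beside 24.0% and 18.0% of all genes. Col16a1, Lamc1 and Col4a1 were called higher in both fractions, and Col1a1 and Col15a1 lower in both. By its brightest probe set, no member was called in opposite directions. A second Lamb1 probe set, past the filter, rose by 0.30 in total RNA (adjusted p = 0.00045, limma) and fell by 0.21 on polysomes (adjusted p = 0.0075, limma).

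Of the type IV pair, Col4a1 alone was called on polysomes. Col4a1 read 7.60, 7.79 and 7.34 on the injured polysome arrays, against 7.23, 7.17 and 7.40 on the sham ones. Injured array 3 lay inside the range of the sham arrays, and the rise of 0.31 ± 0.10 (1.24-fold, adjusted p = 0.029) did not hold in every setting. Without injured replicate 1 or 2 or sham replicate 1 or 2 it was 0.20 to 0.30 and did not pass, and with the replicate number as a block its adjusted p was 0.050. Its second probe set rose by 0.22 (adjusted p = 0.023). Col4a2 read 6.97, 6.99 and 6.73 in injured cord, against 6.88, 6.81 and 6.92 in sham cord. Those groups overlapped, and the difference was 0.03 ± 0.07 (adjusted p = 0.80).

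The laminin chains split on polysomes. Lamc1 read 7.81, 7.89 and 7.65 in injured cord, against 7.32, 7.39 and 7.40 in sham cord. It rose by 0.42 ± 0.07 (1.34-fold, adjusted p = 0.00024) with no overlap, and its second probe set rose by 0.27. Lamb1 read 7.19, 7.35 and 7.21 in injured cord, against 7.09, 7.15 and 7.14 in sham cord. The groups did not overlap, yet the difference of 0.12 did not pass (adjusted p = 0.20), and a second probe set fell by 0.21 (adjusted p = 0.007), so its direction is not settled. Lama2 read 6.93, 6.89 and 6.87 in injured cord, against 7.13, 7.25 and 7.24 in sham cord. All injured arrays lay below all sham arrays, and it fell by 0.31 ± 0.06 (1.24-fold, adjusted p = 0.0015). Lama5, the alpha chain of laminin-511, read 6.73, 6.76 and 6.84 in injured cord, against 6.97, 6.99 and 6.92 in sham cord. Its fall of 0.19 ± 0.05 (adjusted p = 0.012) was lost after centring (-0.11) and after quantile normalization (-0.13), and its second probe set differed by 0.05 (adjusted p = 0.48), so its direction is not settled.

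Col1a1 and Col3a1 were the fibrillar chains called lower on polysomes. Col1a1 read 7.11, 6.87 and 6.93 in injured polysome-bound RNA, against 7.76, 7.81 and 7.82 in sham. Injured and sham arrays were far apart, and the fall was 0.83 ± 0.08 (1.78-fold, adjusted p = 3.3e-06); a second probe set fell by 0.23. Col3a1 read 7.30, 7.85 and 7.27 in injured cord, against 8.07, 8.05 and 8.35 in sham cord. It fell by 0.69 ± 0.20 (1.61-fold, adjusted p = 0.016) with no overlap, but the call was lost without injured replicate 1 or 3 or sham replicate 3, at -0.58 to -0.60, and its second probe set differed by -0.10 (adjusted p = 0.41). Col1a2 read 10.38, 10.18 and 9.92 in injured cord, against 10.33, 10.27 and 10.60 in sham cord. The groups overlapped and the difference of -0.24 did not pass (adjusted p = 0.14), whereas its second probe set fell by 0.34 (adjusted p = 0.007) and the first fell by 0.35 without injured replicate 1.

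Of the remaining named chains, Col16a1 was called higher on polysomes. It read 7.95, 7.92 and 7.87 in injured polysome-bound RNA, against 7.30, 7.44 and 7.49 in sham. It rose by 0.50 ± 0.07 (1.42-fold, adjusted p = 0.00011) with no overlap. Col5a3 read 6.74, 6.57 and 6.64 in injured cord, against 6.44, 6.49 and 6.50 in sham cord, a difference of 0.17 that missed the threshold (adjusted p = 0.051) and passed after centring (0.25). Col5a2 read 6.72, 6.87 and 6.62 in injured cord, against 6.67, 6.68 and 6.56 in sham cord, with overlap and a difference of 0.11 (adjusted p = 0.48). The Col11a2 groups overlapped: it read 6.98, 6.95 and 6.75 in injured cord, against 6.92, 6.93 and 7.01 in sham cord (-0.06, adjusted p = 0.57). Col11a1 read 6.24, 6.22 and 6.26 in injured cord, all at background, against 6.43, 6.24 and 6.47 in sham cord.

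**Figure D3:**
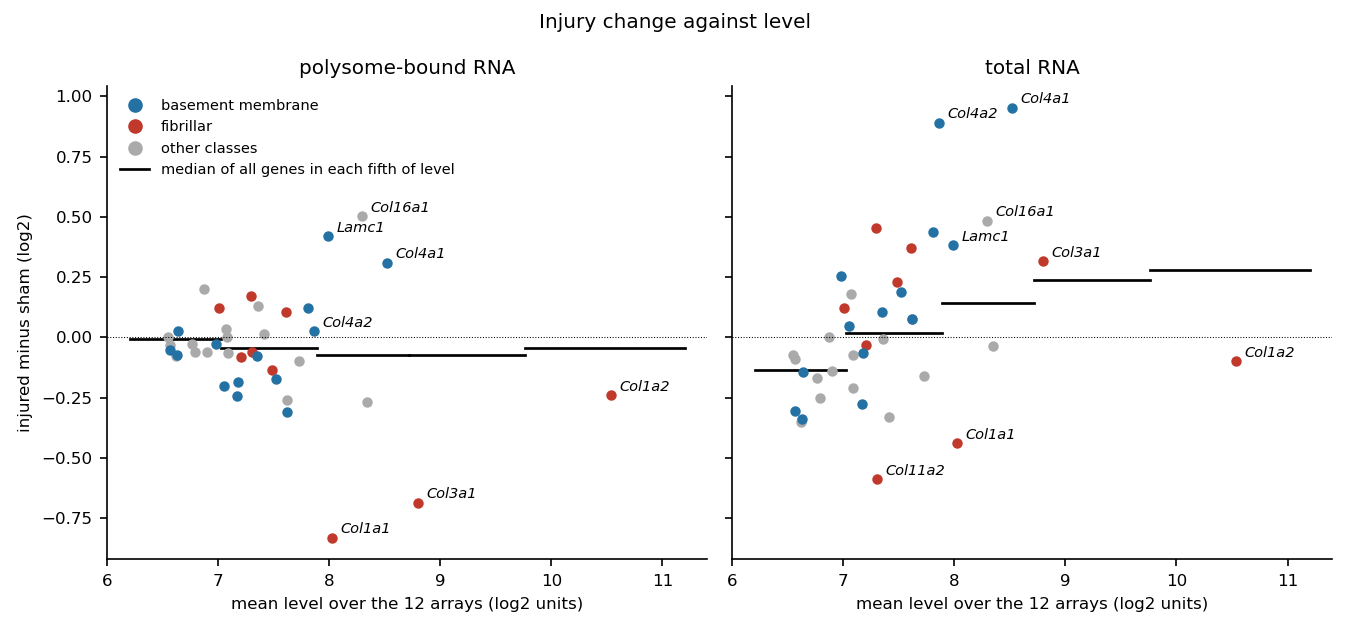
Injured minus sham change (log2) against the mean level over the 12 arrays (log2 units) in polysome-bound and in total RNA, with basement membrane chains in blue, fibrillar chains in red, other classes in grey and black bars for the median of all genes in each of 5 equal groups by level. In total RNA the bars rise from -0.14 to 0.28 with level, Col4a1 and Col4a2 stand well above them and Col1a1 and Col11a2 well below.

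Whether the injury change differed between the fractions was tested directly, as the change in polysome-bound RNA minus that in total RNA. Among the 39 genes this difference was called higher for 7 and lower for 10, beside 11.0% and 39.3% of all genes and 50.2% in either direction. The median of the 39 was 0.00, beside -0.16 for all genes. That background also ran with level, from 0.12 in the dimmest of the 5 groups of genes to -0.33 in the brightest. On centred arrays 10 of the 39 were higher and 7 lower, beside 17.7% and 30.7% of all genes. The basement membrane chains had 3 higher and 6 lower calls and a median of -0.22, and the fibrillar chains 1 higher and 4 lower and a median of -0.26. The largest negative differences were those of Col3a1 (-1.00 ± 0.29, adjusted p = 0.011), Col4a2 (-0.86 ± 0.10, adjusted p = 4.3e-05), Col4a1 (-0.64 ± 0.15, adjusted p = 0.003), Col1a1 (-0.39 ± 0.11, adjusted p = 0.008) and Lama2 (-0.39 ± 0.09, adjusted p = 0.0032). The largest positive one was that of Col11a2 (0.53 ± 0.11, adjusted p = 0.0016), which was called lower in total RNA and was not called on polysomes. Lamc1 and Col16a1, called higher in both fractions, showed differences of 0.04 and 0.02 (adjusted p = 0.77 and 0.89). Other probe sets gave further values: the second Lamc1 probe set was called higher (0.41, adjusted p = 0.008) and the second Lama5 probe set too (0.22, adjusted p = 0.022). The second probe set of Col4a1 (-0.33, adjusted p = 0.014) was called lower, as was that of Col1a2 (-0.54, adjusted p = 0.0033), whereas those of Col3a1 (-0.12, adjusted p = 0.42) and Col1a1 (-0.08, adjusted p = 0.40) were not called. Second probe sets of Lama4 (0.19) and Col5a3 (0.20), below the filter, were not called, against calls of -0.28 for each by the brightest. The fraction differences of Lamc1, Lama5, Col3a1, Col1a1, Col1a2, Lama4 and Col5a3 therefore depend on the probe set. When all 12 arrays were brought to a common distribution by quantile normalization, only 5 of these calls remained, namely Col4a2 (-0.71), Col4a1 (-0.42), Lama4 (-0.29), Col11a2 (0.62) and Col25a1 (0.43). The calls of Col3a1 (-0.61) and Col1a1 (-0.04) were then lost, and that of Col4a1 (-0.31) was lost when each fraction was normalized alone.

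All 39 genes were lower in polysome-bound than in total RNA, in injured and in sham cord alike. The 2 fractions are on different scales, with 72.7% of all genes called lower and 13.6% higher in injured cord (86.3% called) and 59.1% lower and 21.0% higher in sham cord (80.1% called). The arrays of the 2 fractions did not overlap for any of the 39, beside 84.8% of all genes in injured and 86.2% in sham cord. The median polysome-bound minus total difference of the 39 was -0.81 in injured cord, beside -0.41 for all genes, and -0.89 in sham cord, beside -0.30 for all genes. The median of all genes also ran with level. In injured cord it was -0.44 and -0.55 in the 2 dimmest of the 5 groups and -0.12 in the brightest. In sham cord it was -0.57 and -0.48 in the 2 dimmest groups and 0.20 in the brightest. The 2 dimmest groups held 12 and 20 of the 39 members. The parts of level and of the excess of 3′ over 5′ signal, larger on polysome arrays, in the polysome-bound minus total difference were not tested. With each array centred on its own median, 21 of the 39 were lower and 6 higher in injured cord, beside 23.7% and 53.0% of all genes, and 30 were lower and none higher in sham cord, beside 18.9% and 54.3% of all genes. Of the 25 members above background on all arrays, 15 were lower and 3 higher in injured cord after centring, and 19 were lower and none higher in sham cord.

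**Figure D4:**
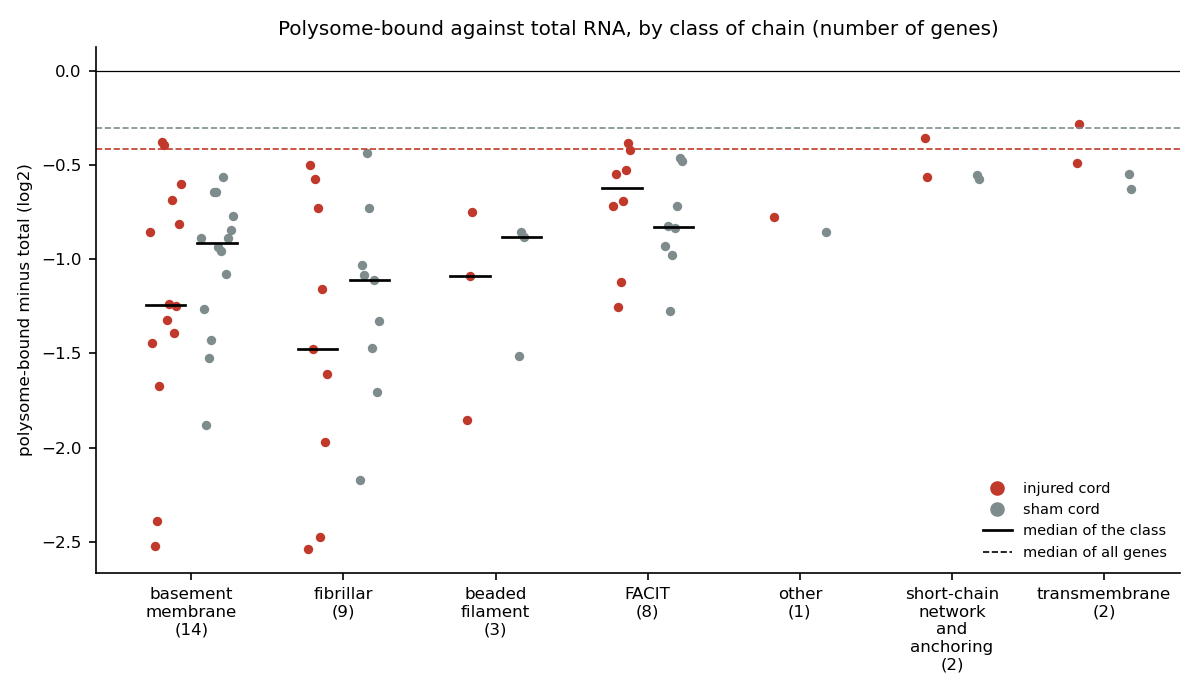
Polysome-bound minus total difference (log2) of each tested gene by class of chain, in injured (red) and sham cord (grey), with black bars for the class median and dashed lines for the median of all genes. Basement membrane chains have medians of -1.24 in injured and -0.91 in sham cord and fibrillar chains of -1.48 and -1.11, below the medians of all genes at -0.41 and -0.30.

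The class medians lay at different distances below total RNA, differences that were not tested. Fibrillar chains had a median of -1.48 in injured and -1.11 in sham cord, basement membrane chains -1.24 and -0.91, and FACITs -0.62 and -0.83. The type IV pair was among the lowest: Col4a1 was 5.75-fold lower on polysomes than in total RNA of injured cord (-2.52 ± 0.10) and 3.68-fold lower in sham cord (-1.88 ± 0.10), and Col4a2 was 5.24-fold and 2.88-fold lower. Col3a1 was 5.55-fold lower in injured and 2.77-fold lower in sham cord, and its second probe set was lower by 1.20 and 1.08 on the log2 scale. By the deposited values, Col11a1 was at least 5.05-fold lower in injured cord, where none of its polysome arrays stood above background. In sham cord it was 4.51-fold lower. Col4a5, at background on all polysome arrays, was by those values at least 2.65-fold lower in injured and at least 2.53-fold lower in sham cord. These bounds hold on the deposited scales alone, which differ between the fractions. On centred arrays Col11a1 was at -1.94 in injured cord, short of its bound of 2.34 on the log2 scale. Col4a5 was at -1.07 in injured and -0.92 in sham cord, short of 1.41 and 1.34. Col1a2 was 1.49-fold lower in injured and 1.35-fold lower in sham cord, and relative to the median of all genes it stood at -0.16 in injured and -0.13 in sham cord. Its second probe set was lower by 1.85 and 1.31 on the log2 scale, so the value for Col1a2 rests on the probe set. Col1a1 lay in between, 2.78-fold lower in injured and 2.12-fold lower in sham cord. Lamc1 was 1.76-fold lower in injured and 1.80-fold lower in sham cord, and Lama5 was 1.61-fold and 1.48-fold lower.

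Genes that act on these chains were examined in 5 lists, with changes in log2 units. The counts stand beside 13.7% higher and 25.3% lower among all genes on polysomes and 42.1% higher and 18.1% lower in total RNA. Among 13 basement membrane partners tested (of 14), none rose and 4 fell on polysomes, and 5 rose and 3 fell in total RNA. Nid1, which joins laminin to type IV collagen, fell by 0.79 on polysomes and differed by 0.10 in total RNA. Fn1, fibronectin, differed by 0.17 on polysomes and rose by 1.08 in total RNA. Fbln5, an elastic fibre protein, differed by 0.02 on polysomes and rose by 0.79 in total RNA. Among 20 genes of collagen synthesis and crosslinking (of 24), 1 rose and 4 fell on polysomes, and 10 rose and 2 fell in total RNA. Lox, the enzyme that crosslinks collagen and elastin, rose by 0.34 on polysomes and by 1.58 in total RNA. Bmp1, which cuts the end propeptide from fibrillar procollagens, differed by 0.00 on polysomes and rose by 0.49 in total RNA. P4hb, a subunit of prolyl hydroxylase, differed by 0.05 on polysomes and rose by 0.41 in total RNA.

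Of 11 receptors tested (of 15), none rose and 3 fell on polysomes, and 2 rose and 5 fell in total RNA. Itgb4, the laminin-binding integrin beta 4 chain, fell by 0.65 on polysomes and by 0.38 in total RNA. Bcam, a receptor for laminin alpha 5, fell by 0.27 on polysomes and by 0.47 in total RNA. Ddr2, a receptor for fibrillar collagen, differed by 0.06 on polysomes and fell by 0.36 in total RNA. Of 14 enzymes that cut collagen or laminin and their inhibitors (of 16), 3 rose and 4 fell on polysomes, and 10 rose and 1 fell in total RNA. Timp1, an inhibitor of matrix metalloproteinases, rose by 1.34 on polysomes and by 2.47 in total RNA. Adamts1, a protease of matrix proteoglycans, rose by 0.81 on polysomes and by 1.64 in total RNA. Ctsb, the lysosomal protease cathepsin B, fell by 0.15 on polysomes and rose by 0.38 in total RNA. Of 13 small leucine-rich and fibril partners (of 15), 2 rose and 3 fell on polysomes, and 5 rose and 2 fell in total RNA. Thbs2 rose by 0.29 on polysomes and by 0.58 in total RNA, Prelp fell by 0.76 on polysomes and differed by 0.02 in total RNA, and Thbs1 rose by 1.46 in total RNA with polysome levels near background.

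Markers of cell types were examined beside these chains. Their counts stand beside 13.7% higher and 25.3% lower among all genes on polysomes. In total RNA those shares were 42.1% higher and 18.1% lower. The summed level of 10 markers of meningeal and perivascular fibroblasts ran from 12.19 to 12.49 in injured and from 12.29 to 12.58 in sham polysome-bound RNA (log2), with 1 of the 10 called higher and 4 lower, and from 13.37 to 13.57 in injured and 12.75 to 13.22 in sham total RNA, with 5 higher and 1 lower. Of these 10, 4 (Dcn, Fmod, Lum and Ogn) also stand among the small leucine-rich partners. For 12 pericyte and smooth muscle markers the sums were 10.96 to 11.10 in injured and 11.05 to 11.25 in sham polysome-bound RNA, and 12.71 to 12.80 in injured and 12.47 to 12.68 in sham total RNA. For 11 endothelial markers they were 9.96 to 10.05 in injured and 10.04 to 10.19 in sham polysome-bound RNA, and 11.97 to 12.03 in injured and 11.77 to 11.98 in sham total RNA. Of the pericyte and smooth muscle markers, none was called higher and 1 lower on polysomes, and 4 higher and 2 lower in total RNA. Of the endothelial markers, none was called higher and 2 lower on polysomes, and 4 higher and 3 lower in total RNA. All 6 neuron markers and all 6 astrocyte markers stood above background in every group. The astrocyte sums were 12.89 to 12.92 in injured and 13.01 to 13.18 in sham polysome-bound RNA, and 14.05 to 14.07 in injured and 13.69 to 13.75 in sham total RNA, without overlap in either fraction. The neuron sums were 14.87 to 14.97 in injured and 14.89 to 14.91 in sham polysome-bound RNA. In total RNA the neuron sums were 14.99 to 15.06 in injured and 14.81 to 14.90 in sham cord, without overlap. Of the astrocyte markers, 2 were called higher and 3 lower on polysomes, and 4 higher and none lower in total RNA. Of the neuron markers, 2 were called higher and 2 lower on polysomes, and 4 higher and 2 lower in total RNA. Of 8 bone and cartilage markers, 4 were tested, and their sums were 9.09 to 9.28 in injured and 9.17 to 9.23 in sham polysome-bound RNA, and 9.43 to 9.52 in injured and 9.60 to 9.66 in sham total RNA. Of these 4, none was called higher and 1 lower on polysomes, and 1 higher and 2 lower in total RNA. Among chains also made by cartilage, Col9a1, Col9a2, Col9a3 and Col11a2 were called lower in total RNA. Col11a1 was called higher there (0.23), and Col2a1 was not called (0.12). The 3 Schwann cell markers tested (of 6) summed to 13.60 to 13.71 in injured and 13.49 to 13.60 in sham polysome-bound RNA. In total RNA they summed to 14.29 to 14.49 in injured and 14.35 to 14.37 in sham cord. Of these 3, 1 was called higher and none lower on polysomes, and 2 higher and none lower in total RNA. Their median change in total RNA was 0.79, which a sum weighted to the brightest marker does not show. Of 5 skeletal muscle markers tested, Acta1 stood above background on all arrays and Tnnt3 on 1. On all 3 arrays of sham total RNA 3 of the 5 stood above background, and 2 of the 5 in each other group. The sums were 8.66 to 8.68 in injured and 8.79 to 9.01 in sham polysome-bound RNA. In total RNA they were 9.10 to 9.85 in injured and 9.36 to 10.12 in sham cord. Of these 5, none was called on polysomes, and none was called higher and 1 lower in total RNA. Sums of injured and sham arrays also did not overlap for fibroblast, pericyte and smooth muscle, and bone and cartilage markers in total RNA. Nor did those of skeletal muscle markers on polysomes. The part of these markers in the results was not tested.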

How the data were processed

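Levels were measured on 12 Affymetrix arrays of mouse spinal cord, 3 in each of 4 groups. Labelled cRNA came from 5 µg of total or 3 µg of polysome-bound RNA, per the labels. The authors deposited 1 value per probe set and array, taken as log2 from its range; the software, background correction and normalization are not given in the sources used here. Symbols came from the platform annotation: of 22690 probe sets, 20393 have 1 symbol, 691 several and 1606 none. The 16566 single-symbol probe sets that, on 3 or more arrays, exceeded the 25th percentile of all probe sets gave 10371 genes, each by its probe set with the highest mean. They were fitted with limma 3.58.1 (R 4.3.3, statmod 1.5.0), with 4 group means, an intensity trend and 14.1 degrees of freedom. P-values were two-sided and Benjamini-Hochberg adjusted over all genes. The fit was tested on simulated data. The number of arrays limits the precision.

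Members, classes and lists were chosen with earlier results of these data known. Values on each array are given for 8 fixed members and for the 12 largest changes among members called with groups that do not overlap, 14 in all; partners are the 3 per list with the lowest adjusted p in either injury comparison. Alternatives were other filters, probe set rules, normalizations, array weights, a replicate block and leaving out arrays.

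The groups share replicate numbers. Deviations of same-numbered arrays correlated across genes at 0.17 to 0.23 between the sham fractions, beside -0.16 to -0.04 for unlike numbers. Between the injured fractions they correlated at -0.10 to 0.20, and between injured and sham arrays at -0.28 to 0.08. With 3 arrays a group, these values cannot settle whether equal numbers mark the same homogenate. The main fit, fraction and interaction p-values included, treated all arrays as independent, and the replicate block is the alternative.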

Additional observations from a re-analysis of the deposited data

Results flagged for a closer look

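For 17 members the injury change in polysome-bound RNA differed from that in total RNA past the threshold of the interaction test (limma, Benjamini-Hochberg adjustment). Polysome-bound minus total, in log2 units, the difference was -1.00 for Col3a1, -0.86 for Col4a2, -0.64 for Col4a1, -0.39 for Col1a1, -0.39 for Lama2, -0.37 for Col11a1, -0.36 for Lamb2, -0.31 for Lamb1, -0.28 for Lama4 and -0.28 for Col5a3. It was 0.17 for Lamc3, 0.20 for Col7a1, 0.25 for Lama1, 0.26 for Col4a6, 0.28 for Col14a1, 0.35 for Col25a1 and 0.53 for Col11a2. Of the 17, the 6 members Lamc3, Lama1, Col4a6, Col14a1, Col11a1 and Lama4 were not above background on all arrays of either polysome group. The median over all genes was -0.16, and 50.2% of all genes were called in this test. The interaction of Lamb1 was lost without injured replicate 1 (-0.24) or sham replicate 1 (-0.27) of total RNA, and that of Col5a3 at -0.21 and -0.25 without the same arrays. Those of Col7a1, Lamc3 and Col14a1 were lost without most single arrays, and those of Col7a1 and Lamc3 also with the replicate number as a block (adjusted p = 0.062 and 0.067). By other probe sets, Col3a1 (-0.12), Col1a1 (-0.08), Col14a1 (0.13) and Col4a6 (0.20) were not called. Lama4 (0.19) and Col5a3 (0.20) were not called there either and had the opposite sign. The other Lamb1 probe sets stood at -0.51, called lower, and -0.05, not called. Those of Col11a1 (-0.41), Col4a1 (-0.33) and Lamc3 (0.30) were called in the direction of the brightest. The other probe sets of Col4a6, Lama4 and Col5a3 were below the filter.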

How the results depend on the processing

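The rises of Col4a1 and Col4a2 in total RNA and the falls of Col1a1 and rises of Col16a1 in both fractions kept direction and call under all 23 alternatives. A change of sign of a value that passed in neither setting was not counted. Without a filter, the medians of basement membrane chains relative to all genes were -0.43 (polysome-bound against total, injured cord), -0.48 (sham cord) and 0.020 (interaction), and that of fibrillar chains in sham cord -0.72. With a filter at the array median, 4 members were lower in total RNA, 21 were lower on polysomes than in total RNA in injured and 21 in sham cord, and the interaction was higher for 2; the basement membrane medians were 0.035 in polysome-bound and 0.089 in total RNA after injury, -1.04 and -1.05 between fractions, and the fibrillar ones -1.23 and -1.21. Averaging the probe sets of a gene gave -0.71 and -0.82 in injured cord for the same 2 classes, -0.67 for fibrillar chains in sham cord and 0.020 for the basement membrane interaction. Quantile normalization over 12 arrays gave basement membrane medians of 0.038 (injury, total RNA), -0.71 and -0.46 (injured and sham fractions) and -0.13 (interaction), a fibrillar median of -0.93 in injured cord, 4 higher and 25 lower between fractions in injured cord, 1 higher in sham cord, and an interaction higher for 2 and lower for 3. Within each fraction it gave 0.035 in total RNA, 7 higher on polysomes after injury, and an interaction higher for 3 and lower for 2. Centring gave 8 higher and 3 lower on polysomes after injury and 6 higher and 21 lower between fractions in injured cord. Of the calls over all genes, the share higher was 55.2% after quantile normalization and 57.2% after centring, against 35.2% as deposited, for injury on polysomes. After quantile normalization over 12 arrays, against as deposited, it was 55.8% and 70.0% for injury in total RNA, 55.8% and 15.8% between fractions in injured cord, 56.8% and 26.2% in sham cord, and 47.0% and 21.8% for the interaction. Without injured polysome arrays 1 and 2, which had the lowest weights, 2 members were higher on polysomes, the interaction was higher for 3, the fibrillar interaction median was -0.20 and the basement membrane median in injured cord -0.91, and Col4a1 on polysomes was 0.08.

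Leaving out single arrays, 7 to 11 members were higher in total RNA (7 without injured replicate 1), the interaction was higher for 2 to 7 (fewest without sham polysome replicate 2 or injured polysome replicate 1), and the fibrillar median between fractions of injured cord was -1.15 to -0.99. The interaction median was -0.13 to 0.0087 for basement membrane and -0.14 to 0.017 for fibrillar chains.

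With the replicate number as a block, 39 members were lower in each fraction comparison, 10 were higher and 13 lower in total RNA, 3 were higher and 6 lower on polysomes, and the interaction was higher for 7 and lower for 12; the block ended the calls of Col4a1 on polysomes, Lamb2 in total RNA and the interactions of Col7a1 and Lamc3.

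Polysome-bound minus total differences changed sign in injured cord for Col11a2 (0.089), Col25a1 (0.31), Col4a6 (0.10), Col7a1 (0.20), Col8a1 (0.0084), Col9a2 (0.15), Col9a3 (0.16) and Lama1 (0.075) under quantile normalization over 12 arrays, and for Col11a2 (0.10), Col13a1 (0.11), Col14a1 (0.054), Col1a2 (0.027), Col25a1 (0.32), Col4a6 (0.22), Col7a1 (0.25), Col8a1 (0.039), Col9a1 (0.076), Col9a2 (0.22), Col9a3 (0.18), Lama1 (0.21) and Lamc3 (0.0011) under centring. In sham cord they did so for Col13a1 (0.055), Col7a1 (0.054), Col8a1 (0.011), Col9a2 (0.14) and Lama5 (0.0036) under quantile normalization and for Col1a2 (0.074), Col9a2 (0.049) and Col9a3 (0.030) under centring. Both settings move all genes up between fractions by construction. Lamb1 on polysomes was -0.21 without probe sets that may cross-hybridise. The cause of the other changes was not tested.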
